A study of Mus musculus with 6 samples.

Results

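Small leucine-rich proteoglycans (SLRPs) are secreted matrix proteins with a short protein core made of leucine-rich repeats. The 9 genes described here, Dcn, Bgn, Aspn, Lum, Fmod, Prelp, Omd, Ogn and Podn, were taken by gene symbol from a table of 33965 genes. They were measured by bulk RNA-seq in 6 subcutaneous tumors of C57BL/6 mice grown from MC38 cells, an established colon carcinoma line of the mouse. The control group held 3 tumors treated with PBS, and the treated group held 3 tumors treated with GB2, a prodrug in which the STING agonist MSA-2 is joined by a disulfide bond to artesunate, used as an inhibitor of the myeloid receptor TREM2. The labels give neither the age of the mice nor the time of collection, and the MC38 cells are a single line, so all 6 tumors share one tumor cell background. The comparison asks how the SLRP transcripts of GB2 tumors differ from those of PBS tumors.

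SLRP cores bind collagen fibrils and set their width and spacing, and several of them also hold growth factors such as TGF-β or signal through receptors on tumor and immune cells. Most carry chondroitin, dermatan or keratan sulfate chains, which are added in the Golgi. In solid tumors they are known mainly as products of fibroblasts. The family is divided into classes by sequence. Dcn, Bgn and Aspn belong to class I, Lum, Fmod, Prelp and Omd to class II, Ogn to class III, and Podn to a class of podocans that lies outside the canonical ones.

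Each tumor library held between 64764405 and 83690056 estimated counts, at about 4 counts per read pair, and the smallest GB2 library exceeded the largest PBS library. The SLRP genes took 2883 to 5989 of these counts in PBS tumors and 10925 to 17013 in GB2 tumors. PBS tumor 1 stood apart from the other 5 tumors on the first principal component, which held 34.0% of the variance, so the members' count under the unadjusted rule and their median are also given without this tumor. The list counts further on were not repeated without it. The labels do not say whether tumors of a group came from separate animals, so it is not known whether they are independent. The p-values weigh the group difference against the spread between these tumors and treat them as independent.

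Of the 9 SLRP genes, 8 passed the filter on low counts and all 8 had a positive fitted fold change, higher in GB2 than in PBS tumors. The median log2 fold change of the 8 was 1.39, against -0.02 over all 19602 genes tested, of which 48.3% had a positive fold change. None of the 8 was called by edgeR's quasi-likelihood test with a 2-fold difference and an adjusted p below 0.05, and their adjusted p-values lay between 0.186 and 0.796. This rule called 0% of all genes, and the smallest adjusted p in the table was 0.166. Without the adjustment, 6 of the 8 (Dcn, Bgn, Aspn, Lum, Ogn and Podn) had a p under 0.05 with at least a 2-fold higher level, against 3.74% of all genes tested. The same 6 genes had every GB2 tumor above every PBS tumor in CPM, the counts scaled to library size, against 8.61% of all genes. DESeq2, run as an alternative on the same counts, called 5 of them (Dcn, Bgn, Aspn, Lum and Podn) against 1.8% of all genes. Without PBS tumor 1, 6 members passed the unadjusted rule and their median was 1.52. In that fit 950 of 20529 genes tested passed the rule in the same direction. Bulk RNA cannot tell apart fewer cells of a type and less RNA per cell, and this holds for every difference below.

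**Figure D1:**
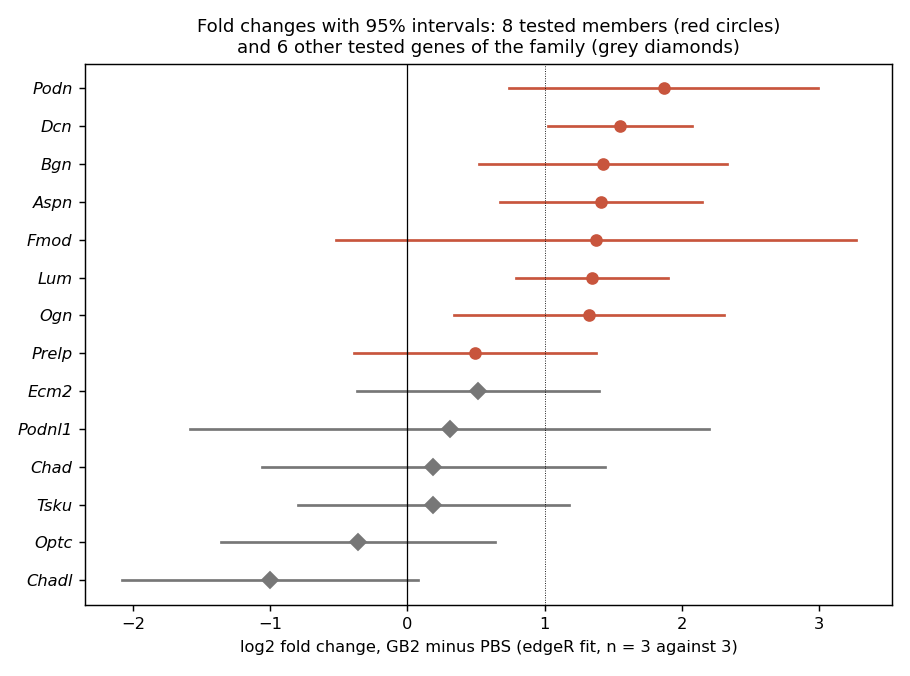
Fitted log2 fold changes (GB2 minus PBS, horizontal axis) with 95% confidence intervals for the 8 tested SLRP genes (red circles) and 6 other tested genes of the family (grey diamonds), from 3 tumors per group. The vertical lines mark no difference and a 2-fold higher level, and 6 of the 8 members have intervals above 0, which Fmod and Prelp do not.

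Promoter sequences are shown because the members that were higher in GB2 tumors together had promoters of very different base composition. Promoter entries of RefSeq on GRCm38.p6, with 250 bases before and 50 after each start, matched 7 of the 9 genes by symbol, all but Dcn and Lum, and gave 8 windows. The 120 bases before the start are given for Bgn (chrX:73483481-73483600, plus strand), for the first of the starts of Podn (chr4:108031955-108032074, minus strand), and for Aspn (chr13:49544323-49544442), Omd (chr13:49582342-49582461) and Ogn (chr13:49607895-49608014), which are neighbours on the plus strand. Each reads from 5′ to 3′ toward the start, and capitals mark the letters GGGCGG of a GC box or its reverse complement.
Bgn: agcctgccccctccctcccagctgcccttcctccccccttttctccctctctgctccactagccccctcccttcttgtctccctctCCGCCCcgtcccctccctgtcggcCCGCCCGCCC
Podn: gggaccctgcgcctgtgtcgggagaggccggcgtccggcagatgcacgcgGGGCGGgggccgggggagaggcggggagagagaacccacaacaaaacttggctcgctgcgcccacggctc
Aspn: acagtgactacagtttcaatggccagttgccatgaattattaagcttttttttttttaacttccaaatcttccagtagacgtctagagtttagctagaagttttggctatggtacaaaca
Omd: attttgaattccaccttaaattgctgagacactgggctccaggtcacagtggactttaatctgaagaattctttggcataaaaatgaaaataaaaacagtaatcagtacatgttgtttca
Ogn: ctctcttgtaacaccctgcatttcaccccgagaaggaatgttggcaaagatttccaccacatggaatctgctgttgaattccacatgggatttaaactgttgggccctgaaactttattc
The windows of Bgn and of both starts of Podn were rich in G and C, at 63.7%, 77.0% and 63.0%, and those of Aspn, Omd and Ogn were not, at 31.0%, 37.7% and 42.3%. The windows of Fmod and Prelp stood between these, at 51.0% and 55.3%. The median of all 32851 promoter windows was 52.7%. In searches of both strands over the 300 bases, GGGCGG was found in the windows of Bgn and of the first start of Podn, with 3 matches in Bgn of which the last 2 overlap, and in 35.7% of all promoters. TATAAA was found in the windows of Aspn and Ogn, upstream of the bases shown, and in 13.6% of all promoters. CCAAT was found in the windows of Prelp, Fmod and Aspn and in 37.4% of all promoters. The AP-1 letters TGANTCA and the STAT letters TTCNNNGAA were in none of the 8 windows, and in 7.81% and 8.30% of all promoters, which says only that these letters are absent there. Aspn and Ogn, which were higher in GB2 tumors, and Omd, whose level did not separate the groups, all had windows below that median in G and C.

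The class I genes were among the most abundant members and all 3 were higher in every GB2 tumor. Levels are given as FPKM, fragments scaled to transcript length and library size, and gene positions are those of the deposited table, which are not on GRCm38. Dcn (ENSMUSG00000019929, chr10:97315471-97354005, plus strand) encodes decorin, which coats collagen fibrils and binds TGF-β and the receptors EGFR and MET. Dcn stood at 1.78, 2.17 and 1.49 FPKM in PBS tumors 1 to 3 and at 5.15, 5.01 and 6.72 FPKM in GB2 tumors 1 to 3. The lowest GB2 tumor was above the highest PBS tumor by more than the whole range of the PBS group. The means were 1.81 ± 0.339 FPKM (SD, n = 3) and 5.63 ± 0.952 FPKM (SD, n = 3). The edgeR fit gave a log2 fold change of 1.55 ± 0.23 (SE), with a 95% interval of 1.02 to 2.08, a p of 0.000173 and an adjusted p of 0.186. Dcn had the smallest p of the members, and the DESeq2 adjusted p was 6.1e-07.

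Bgn (ENSMUSG00000031375, chrX:72527208-72539539, plus strand) encodes biglycan, the closest relative of decorin, which in soluble form acts on the Toll-like receptors TLR2 and TLR4 of macrophages. It was the most abundant member in both groups. Bgn stood at 2.71, 8.27 and 4.29 FPKM in the PBS tumors and at 14.1, 10.2 and 18.3 FPKM in the GB2 tumors. The groups did not overlap, but the PBS tumors spread more widely than for Dcn or Lum, with PBS tumor 2 close to GB2 tumor 2. The fit in edgeR gave a log2 fold change of 1.42 ± 0.39 (SE), with an interval of 0.52 to 2.33 and an adjusted p of 0.368. Aspn (ENSMUSG00000021388, chr13:49697919-49721041, plus strand) encodes asporin, a class I member that lacks a glycosaminoglycan chain and binds collagen and TGF-β. Aspn stood at 1.77, 1.30 and 1.45 FPKM in the PBS tumors and at 4.43, 2.88 and 5.54 FPKM in the GB2 tumors. GB2 tumor 2 was the lowest of its group for both genes and still above all 3 PBS tumors. The log2 fold change of Aspn in edgeR was 1.41 ± 0.32 (SE), with an interval of 0.67 to 2.15 and an adjusted p of 0.269.

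Of the class II genes, Lum was higher in every GB2 tumor, and Fmod, Prelp and Omd overlapped between the groups. Whether the fold changes differed between these genes was not tested. Lum (ENSMUSG00000036446, chr10:97400990-97408565, plus strand) encodes lumican, a keratan sulfate proteoglycan of the cornea, skin and tumor stroma. Lum stood at 2.11, 1.98 and 2.16 FPKM in the PBS tumors and at 5.11, 4.76 and 6.99 FPKM in the GB2 tumors. Relative to the mean, its PBS tumors were the most alike of any member, at 2.09 ± 0.0903 FPKM (SD, n = 3). Its GB2 tumors had a mean of 5.62 ± 1.20 FPKM (SD, n = 3). The log2 fold change in edgeR was 1.35 ± 0.24 (SE), with an interval of 0.79 to 1.903, a p of 0.000613 and an adjusted p of 0.190.

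Fmod (ENSMUSG00000041559, chr1:133964992-133976015, plus strand) encodes fibromodulin, which binds the same region of type I collagen as lumican. Fmod stood at 0.109, 0.272 and 0.106 FPKM in the PBS tumors and at 0.287, 0.0962 and 0.956 FPKM in the GB2 tumors. GB2 tumor 3 was the highest of the 6 and GB2 tumor 2 the lowest, so the groups overlapped. The log2 fold change in edgeR was 1.37 ± 0.81 (SE), with an interval of -0.52 to 3.27 and an adjusted p of 0.759, and without GB2 tumor 3 it was 0.18. Prelp (ENSMUSG00000041577, chr1:133838042-133849152, minus strand) encodes a member with a basic end that binds heparan sulfate and helps to anchor basement membranes to the connective tissue beneath. Prelp stood at 0.948, 2.28 and 2.95 FPKM in the PBS tumors and at 3.20, 3.33 and 2.42 FPKM in the GB2 tumors. PBS tumor 1 was low, and PBS tumor 3 was above GB2 tumor 3. In edgeR its log2 fold change was 0.49 ± 0.38 (SE), with an interval of -0.39 to 1.37 and an adjusted p of 0.796. It was 0.19 without PBS tumor 1 and 0.81 without PBS tumor 3. Omd (ENSMUSG00000048368, chr13:49735938-49746298, plus strand) encodes osteomodulin, a keratan sulfate proteoglycan of bone and teeth. It had between 0 and 19 counts per tumor and did not pass the filter. Omd stood at 0.0931, 0.0241 and 0.0307 FPKM in the PBS tumors and at 0.0960, 0 and 0.0462 FPKM in the GB2 tumors, and a difference was not detectable at this depth.

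The class III gene Ogn and the podocan gene Podn were present at low levels, and both had every GB2 tumor above every PBS tumor. Ogn (ENSMUSG00000021390, chr13:49761522-49777977, plus strand) encodes osteoglycin, also called mimecan, a collagen-binding member found in bone, vessel walls and cornea. Ogn stood at 0.387, 0.302 and 0.186 FPKM in the PBS tumors and at 0.770, 0.601 and 0.989 FPKM in the GB2 tumors, from 35 to 69 and from 135 to 218 counts. The log2 fold change in edgeR was 1.32 ± 0.42 (SE), with an interval of 0.34 to 2.31 and an adjusted p of 0.515. Ogn was the one of the 6 separated members that DESeq2 did not call, at an adjusted p of 0.137. Podn (ENSMUSG00000028600, chr4:107871988-107953642, minus strand) encodes podocan, a collagen-binding protein first known from the kidney and the vessel wall. Podn stood at 0.101, 0.169 and 0.0697 FPKM in the PBS tumors and at 0.378, 0.304 and 0.647 FPKM in the GB2 tumors. It had the largest fitted difference of the members, a log2 fold change of 1.87 ± 0.48 (SE) in edgeR with an interval of 0.74 to 3.00 and an adjusted p of 0.331. Each of the 6 separated members gave a p of 0.1 in an exact two-sided permutation test of log2 CPM, the smallest that 3 against 3 tumors allow.

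**Figure D2:**
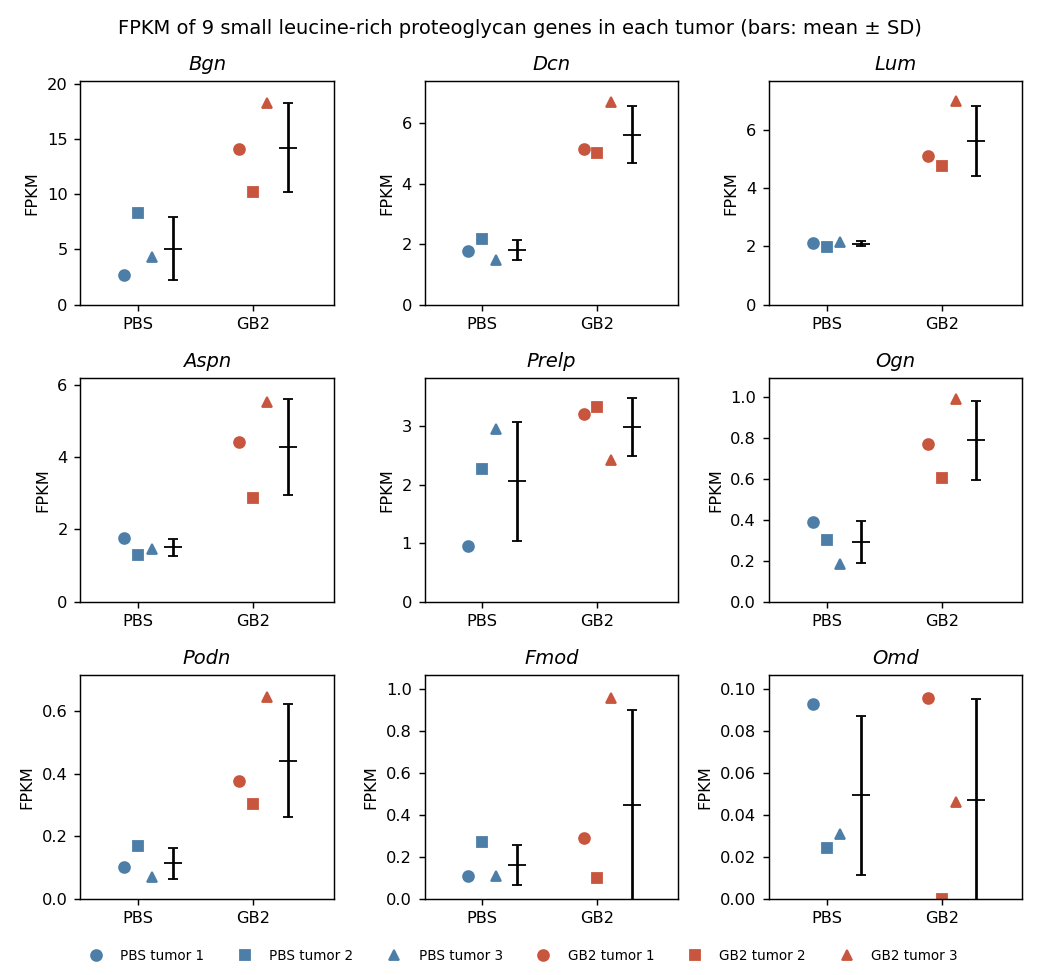
FPKM of the 9 SLRP genes in each tumor, with one panel and one vertical scale per gene, PBS tumors in blue and GB2 tumors in red. Horizontal ticks with bars are the mean ± SD of 3 tumors, and bars that would pass below 0 (Fmod and Omd in GB2) end at the axis. The groups are apart for Bgn, Dcn, Lum, Aspn, Ogn and Podn, and overlap for Prelp, Fmod and Omd.

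Per transcript length, the members fell into 3 tiers. Bgn led in both groups, with 84.0% of the genes with a nonzero mean FPKM below it. Its range lay above that of the next member in both groups, although PBS tumor 3 had more Prelp than PBS tumor 1 had Bgn. Lum, Prelp, Dcn and Aspn formed the second tier in PBS tumors, at means of 2.09, 2.06, 1.81 and 1.504 FPKM, and neighbours in this order did not differ beyond their spread. In GB2 tumors the order within this tier was Dcn, Lum, Aspn and Prelp, at means of 5.63, 5.62, 4.28 and 2.98 FPKM, again with overlapping neighbours. Prelp stood above Dcn and Aspn in mean in PBS tumors and below both in GB2 tumors. Ogn, Fmod and Podn made up the third tier in both groups, below 1 FPKM in every tumor. Omd was the lowest, with 32.5% of the genes with a nonzero mean FPKM below it.

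The summed SLRP level stood at 10.01, 16.8 and 12.7 FPKM in the PBS tumors and at 33.5, 27.2 and 42.6 FPKM in the GB2 tumors. The share of this sum that each gene supplied overlapped between the groups for 8 of the 9 members. The shares did not overlap for Podn, which supplied 1.01%, 1.01% and 0.547% in the PBS tumors, against 1.13%, 1.12% and 1.52% in the GB2 tumors. The Podn values rest on 22 to 54 estimated counts per PBS tumor. Whether the Podn share differed between the groups was not tested, and 3 against 3 tumors allow no exact permutation p below 0.1. Bgn supplied 36.7% ± 11.4 (SD, n = 3) of it in PBS tumors and 40.9% ± 2.89 (SD, n = 3) in GB2 tumors. Dcn supplied 14.2% ± 3.22 and 16.5% ± 1.66, and Lum 16.6% ± 4.65 and 16.4% ± 1.13, as mean and SD of 3 tumors in PBS and GB2. Prelp supplied 15.4% ± 7.05 in PBS tumors and 9.16% ± 3.31 in GB2 tumors. The shares of Bgn, Dcn, Lum, Aspn and Prelp each spread more among the PBS tumors than among the GB2 tumors. Relative to Dcn in the same tumor, Prelp stood at 0.532, 1.05 and 1.98 in the PBS tumors and at 0.622, 0.665 and 0.360 in the GB2 tumors. Of the 7 ratios to Dcn compared, this had the largest difference, -0.96 on the log2 scale, with p = 0.3 in an exact two-sided permutation test and 0.8 after adjustment over the 7. Bgn relative to Dcn differed by -0.04 and Lum relative to Dcn by -0.23 on the log2 scale, with exact permutation p of 0.8 and 0.4. None of the 7 ratios separated GB2 from PBS tumors after adjustment, where the smallest p that 3 against 3 tumors allow is 0.1.

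**Figure D3:**
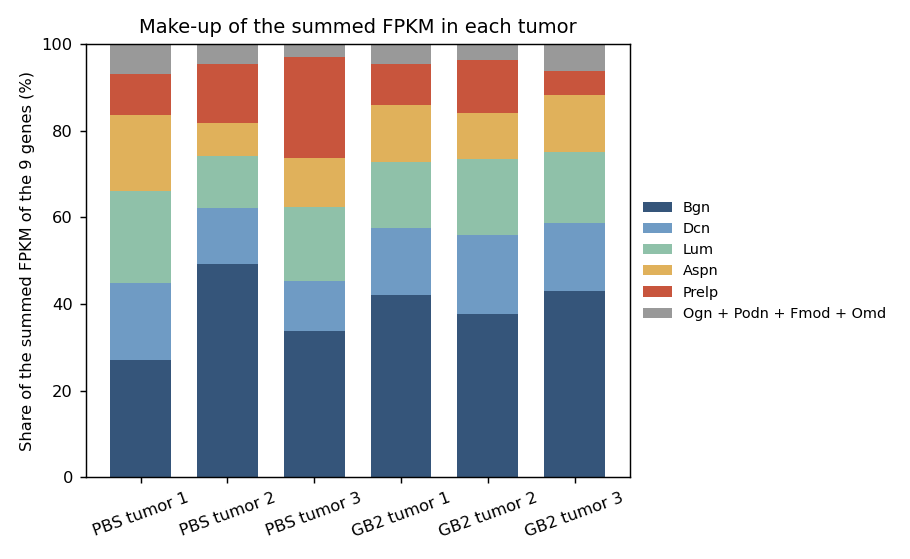
Share of the summed FPKM of the 9 SLRP genes supplied by each gene (vertical axis, percent) in each of the 6 tumors, with Ogn, Podn, Fmod and Omd drawn together. Bgn takes the largest share in every tumor, and the Prelp share runs from 5.67% in GB2 tumor 3 to 23.2% in PBS tumor 3.

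Most SLRP genes lie in short runs of related genes, and whether the fold changes differed between neighbours was not tested. On chromosome 10, Dcn, Lum, Kera and Epyc lie in this order on the plus strand within 202.8 kb of the table, with 1 other gene between Lum and Kera. Dcn and Lum, with 47.0 kb between them, had log2 fold changes of 1.55 and 1.35, while keratocan (Kera) and epiphycan (Epyc), known from cornea and cartilage, stayed at or below 0.0240 and 0.0225 FPKM in every tumor and were not tested. On chromosome 13, Ecm2, Aspn, Omd and Ogn follow each other within 119.7 kb. Aspn and Ogn had log2 fold changes of 1.41 and 1.32, Ecm2 of 0.51 with an adjusted p of 0.789 in edgeR, and Omd between them was near the detection limit. On chromosome 1, Optc, Prelp and Fmod lie within 151.1 kb, with log2 fold changes of -0.36, 0.49 and 1.37, and none of the 3 passed the unadjusted test.

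Some members overlap other genes in the table, and the sources used here do not state whether counting used the strand. Aspn, Omd and Ogn lie inside Cenpp, a centromere protein gene on the opposite strand, which had 675 to 997 counts per tumor and a log2 fold change of -0.22 ± 0.28 (SE). Podn overlaps Scp2, a sterol carrier gene on the same strand, over 52607 bases. Scp2 had 7436 to 8933 counts per tumor against 22 to 237 for Podn, and its log2 fold change was -0.35 ± 0.17 (SE), in the opposite direction to that of Podn. The part of these overlaps in the values of Aspn, Ogn and Podn was not tested.

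The other genes of the family had smaller differences than most of the 8 members. Of 9 such genes in the table, 6 were tested and 4 had positive fold changes, with a median log2 fold change of 0.19. None of the 6 passed the unadjusted rule, near the 3.74% of all genes that did. The difference between these genes and the members was not tested. Tsku (tsukushi), a secreted inhibitor of BMP and Wnt signaling, had a log2 fold change of 0.19, and so did Chad (chondroadherin). Podnl1, the paralog of Podn, had 0.31. Chadl had the only negative fold change past 2-fold, -1.002 ± 0.46 (SE), and stood at 1.32, 1.36 and 4.49 FPKM in the PBS tumors and at 1.25, 1.26 and 1.20 FPKM in the GB2 tumors. The groups did not overlap for Chadl, and PBS tumor 3 was far above the other 5 tumors.

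Most enzymes that build and sulfate the chains on SLRP cores did not pass the unadjusted rule. Of 24 tested, 16 had positive fold changes and the median log2 fold change was 0.11. In 7 of the 24 every GB2 tumor was above every PBS tumor, against 8.61% of all genes, and 3 passed the unadjusted rule in that direction, against 3.74%. The 3 were Chst11, a chondroitin sulfotransferase, at 0.171 ± 0.0348 and 0.505 ± 0.0522 FPKM (mean and SD of 3 PBS and 3 GB2 tumors), Csgalnact1, which starts chondroitin chains, with a log2 fold change of 1.45, and Chst15, which adds a further sulfate to chondroitin, with 1.15. The most abundant enzymes were Chpf and Chsy3, which extend chondroitin chains, at 34.8 and 32.4 FPKM in PBS tumors and 30.8 and 36.3 FPKM in GB2 tumors. Their log2 fold changes were -0.25 and 0.10.

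Most collagen genes whose products SLRPs bind were higher in GB2 tumors, and the difference between them and the SLRP genes was not tested. Of 13 tested, 12 had positive fold changes and 10 passed the unadjusted rule, the same 10 had every GB2 tumor above every PBS tumor, and the median log2 fold change was 1.45, within a range of -1.46 to 2.23. Of all genes, 3.74% passed this rule and 8.61% were apart in this direction. DESeq2 called 10, against 1.8% of all genes, and edgeR called none. Col1a1, a chain of type I collagen, stood at 16.2, 27.0 and 12.1 FPKM in the PBS tumors and at 54.2, 42.8 and 62.6 FPKM in the GB2 tumors. Col3a1, which forms type III collagen, stood at 12.7, 15.8 and 9.95 FPKM and at 42.7, 35.2 and 48.9 FPKM. As for Dcn, every GB2 tumor was above every PBS tumor. Col12a1, a fibril-associated collagen, had the largest log2 fold change of the list at 2.23. The cartilage collagen gene Col2a1 had the only negative one, -1.46 with an adjusted p of 0.776 in edgeR.

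Dcn kept a near-constant ratio to Col3a1 across the tumors. The ratio of their FPKM was 0.140, 0.137 and 0.150 in the PBS tumors, against 0.121, 0.142 and 0.137 in the GB2 tumors. The ratio of Dcn to Col1a1 was 0.110, 0.0802 and 0.123 in the PBS tumors, against 0.0950, 0.117 and 0.107 in the GB2 tumors. The ratio of Bgn to Col1a1 was 0.168, 0.306 and 0.354 in the PBS tumors, against 0.260, 0.239 and 0.293 in the GB2 tumors. In all 3 ratios the groups overlapped, in contrast to the levels of Dcn, Bgn, Col1a1 and Col3a1 themselves. The ratio of Dcn to Pdgfra, a receptor that marks fibroblasts, was 12.9, 12.2 and 6.59 in the PBS tumors, against 6.86, 9.35 and 7.66 in the GB2 tumors, and also overlapped.

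**Figure D4:**
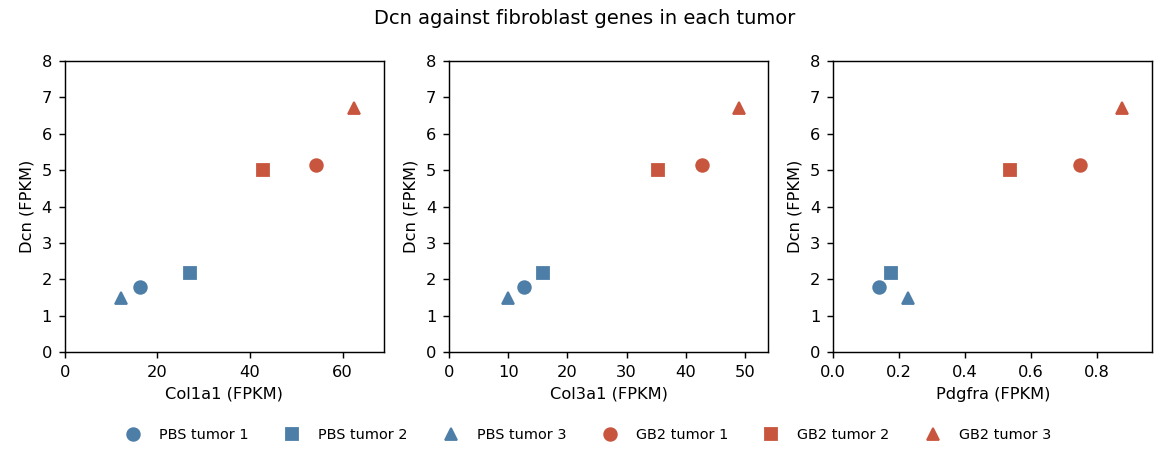
FPKM of Dcn (vertical axis) against FPKM of Col1a1, Col3a1 and Pdgfra (horizontal axes) in the 6 tumors, on linear axes that start at 0. The 3 GB2 tumors lie above and to the right of the 3 PBS tumors in each panel.

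Among ligands and receptors that bind SLRP cores, 2 of 20 tested (Kdr and Tgfbr3) had every GB2 tumor above every PBS tumor. This was near the 8.61% of all genes that did. Of 20 tested, 15 had positive fold changes, 1 passed the unadjusted rule, near the 3.74% of all genes that did, and the median log2 fold change was 0.23. That gene was Kdr, the VEGF receptor of endothelial cells to which decorin can bind, at 0.708, 0.992 and 0.984 FPKM in the PBS tumors, against 2.75, 2.26 and 2.65 FPKM in the GB2 tumors. Tgfb1 stood at 2.36, 4.49 and 6.72 FPKM and at 8.60, 10.01 and 6.48 FPKM, and PBS tumor 3 overlapped the GB2 group. The most abundant receptors were the integrin chain gene Itgb1, at means of 130 ± 7.64 and 145 ± 10.4 FPKM (SD, n = 3), and Met, at 105 ± 14.2 and 154 ± 61.3 FPKM (SD, n = 3). Tlr2 and Tlr4, the receptors of soluble biglycan, had log2 fold changes of 0.76 ± 0.45 and 0.41 ± 0.32 (SE).

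Among proteases that process SLRP cores or cleave them, 11 of 13 tested had positive fold changes, against 48.3% of all genes, and 5 passed the unadjusted rule, against 3.74%. The median log2 fold change was 0.89. Mmp9 and Mmp13, a gelatinase and a collagenase, had the largest log2 fold changes, 2.32 and 2.30. Mmp13, which cleaves fibromodulin and biglycan, stood at 0.473, 0.648 and 0.526 FPKM in the PBS tumors and at 2.73, 2.33 and 3.55 FPKM in the GB2 tumors. The other 3 were Mmp3 (1.33), Mmp2 (1.10) and Htra1 (1.09). Bmp1, which removes the propeptide of biglycan and of fibrillar collagens, had a log2 fold change of 0.67 ± 0.33 (SE) and its groups overlapped. The most abundant genes of the list were the protease gene Adamts1 and Pcolce, which encodes an enhancer of Bmp1, with log2 fold changes of 0.24 and 0.19.

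Markers of fibroblasts were higher in the same tumors as the SLRP genes. The unadjusted rule, by which each list is counted here, was passed by 3.74% of all genes. Of 15 fibroblast markers, 12 passed, with a median log2 fold change of 1.42, and their summed level ran from 62.6 to 102 FPKM in PBS tumors and from 161 to 210 FPKM in GB2 tumors. Of these, 3 (Col1a1, Col1a2 and Col3a1) are also in the collagen list. Pdgfra had a log2 fold change of 1.93 and Fap, a protease of activated fibroblasts, one of 2.03, while Fbln1, the most abundant of these markers in PBS tumors, had 0.23 and Twist1 had -0.31. Of 9 pericyte and smooth muscle markers, 1 (Des) passed, and the sums ran from 51.8 to 108 FPKM and from 86.6 to 105 FPKM, with overlap between PBS and GB2 tumors. Of 8 endothelial markers, 5 passed, with sums of 9.78 to 13.1 FPKM and 26.0 to 29.3 FPKM. The angiopoietin receptor gene Tek had the largest log2 fold change among them, 1.69, and Cdh5, the cadherin of endothelial junctions, had 1.38. Of 8 macrophage markers, all 8 passed, with a median log2 fold change of 1.94 and sums of 42.6 to 58.6 FPKM and 165 to 230 FPKM. Adgre1, which encodes the F4/80 antigen, had the largest at 2.55, and the lysozyme gene Lyz2, the most abundant of the 8, had 2.11. The part of these cell types in the SLRP differences was not tested.

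Markers of tissues around a subcutaneous tumor are given by tissue, and differences between the tissues were not tested. Among tested markers, every GB2 tumor was above every PBS tumor for 7 of skeletal muscle, 1 of adipocytes and 2 of tumor epithelium. This held for 0 keratinocyte markers and 0 tendon, cartilage and bone markers, and for 8.61% of all genes. Of 9 skeletal muscle markers, 1 (Actn3) passed the unadjusted rule, against 3.74% of all genes, and 7 had every GB2 tumor above every PBS tumor, against 8.61%, with sums of 45.5 to 77.0 FPKM in PBS and 100 to 117 FPKM in GB2 tumors. Of 8 adipocyte markers none passed, with sums of 4.66 to 25.7 FPKM and 25.2 to 36.0 FPKM, and Lep and Retn were listed at 0 in PBS tumor 3. Of 8 keratinocyte markers none passed, with sums of 12.04 to 37.4 FPKM and 35.1 to 60.6 FPKM, and Flg was listed at 0 in GB2 tumor 3. Of 9 tendon, cartilage and bone markers, 6 were tested and none passed, with sums of 1.33 to 18.9 FPKM and 2.79 to 5.49 FPKM, and Ibsp was listed at 0 in all 6 tumors. Among 8 epithelial markers for the tumor cells, 6 were tested and 1 (Epcam) passed, with sums of 4.19 to 5.42 FPKM and 4.21 to 6.61 FPKM, so the labelled colon carcinoma had low levels of epithelial markers in both groups. The part of muscle, fat and skin in the SLRP values was not tested.

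The genes whose log2 CPM followed the mean standardized level of the 8 tested members most closely over the 6 tumors were Fbn1, Mfap4, Gpx3, Lyn and Il4ra. They came from 12371 other genes with a mean of at least 1 FPKM, and their Pearson r was 0.995, 0.993, 0.993, 0.991 and 0.991. These values describe 6 points in 2 groups and share library depth, so separation of the groups in the same direction raises r. In all, 85 genes were above 0.95. Pdgfrb and Pdpn also separated the groups and had an r of 0.741 and 0.743. The part of the group separation in these r values was not tested. Fbn1 and Mfap4 encode fibrillin and a protein of elastic microfibrils, and stood at means of 0.799 and 0.545 FPKM in PBS tumors and 2.36 and 2.79 FPKM in GB2 tumors. Gpx3 is a secreted glutathione peroxidase, at 3.22 and 10.8 FPKM. Lyn, a tyrosine kinase of blood cells, was at 0.942 and 2.37 FPKM, and Il4ra, the receptor chain for interleukins that act on macrophages and lymphocytes, at 0.723 and 2.26 FPKM. Of the fibroblast markers with a mean of at least 1 FPKM, Postn followed the members most closely. Postn was at rank 10 with an r of 0.988, and Fbln1 had an r of 0.461. Pdgfra, Fap, Pi16 and Twist1 were below that level and were not ranked.

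Leaving out each tumor in turn left the log2 fold changes of the 8 members tested with all 6 tumors above 0. The log2 fold change of Dcn ran from 1.41 to 1.67 and that of Lum from 1.17 to 1.44, the narrowest ranges of the members. Bgn ran from 1.16 without PBS tumor 1 to 1.93 without PBS tumor 2, and Podn from 1.51 to 2.24. Fmod had the widest range, from 0.18 without GB2 tumor 3 to 1.92 without PBS tumor 2.

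**Figure D5:**
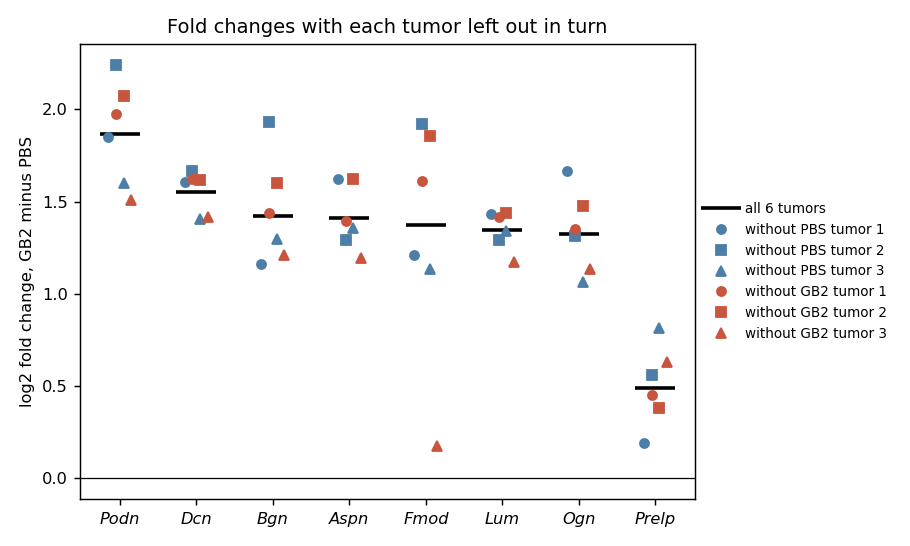
Fitted log2 fold change (GB2 minus PBS, vertical axis) of the 8 tested SLRP genes with all 6 tumors (black bars) and with each tumor left out (symbols). All points lie above 0, and Fmod is at 0.18 without GB2 tumor 3.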

How the data were processed

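RNA of 3 PBS and 3 GB2 MC38 tumors was sequenced from poly-A selected, paired-end libraries made with dUTP, and replicates were not pooled. For each gene the authors deposited estimated counts, which are whole numbers not scaled between tumors, and FPKM values, which the authors divided by transcript length and library total. The submitters' processing notes name cutadapt 1.9, HISAT2 2.2.1, StringTie 2.1.6, DESeq2, edgeR and mm10 without roles. Of 31999 gene IDs shared with a GRCm38 annotation, 641 (2.00%) have an identical start and end there, and none of these is a member. All per-sample columns were used. About 4 estimated counts stand for 1 read pair, as judged from the steps of low values.

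Counts were fitted in R 4.3.3 with edgeR 4.0.16 (filterByExpr with a minimum count of 10, TMM scaling, glmQLFit and glmQLFTest), with Benjamini-Hochberg adjustment over 19602 genes. A call needed a 2-fold difference or more with an adjusted p below 0.05. The common biological coefficient of variation was 40.5%, which limits the precision. Standard errors come from the test statistic, and 2 was the prior count for log2 CPM. Alternatives were DESeq2 1.42.0, RLE size factors, no filter, counts divided by 4, limma 3.58.1 with a trend on log2(FPKM + 1) and log2(FPKM + 0.1), a replicate block and leaving out each tumor. The computations were tested on simulated counts. Same-numbered tumors deviated from their group means with correlations of 0.03, 0.15 and -0.24 across genes. The labels state no pairing, and these values cannot decide whether the numbers pair the tumors, so the main fit used the group only.

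The members, gene lists and marker lists were chosen with earlier results of these data known. Each member is named. In other lists, genes to name were to be those with the largest fold changes at an unadjusted p under 0.05 and the most abundant ones, up to 4. Some lists name fewer, and further genes named were picked after their values were seen. Likeness was ranked by Pearson correlation among genes with a mean of at least 1 FPKM.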

Additional observations from a re-analysis of the deposited data

How the results depend on the processing

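The 8 SLRP genes tested with all tumors kept a positive log2 fold change in all 13 alternatives. DESeq2 called 5 members where edgeR called 0, and over all genes it called 352 with higher and 33 with lower levels after GB2, where edgeR called none. The cause of this difference was not tested. The median log2 fold change of the members was 1.39 with all tumors and 0.76 in limma on log2(FPKM + 1). Low genes have smaller differences on this scale, where 4 members, in place of 6, passed the unadjusted rule. Of all genes, 95 of 19042 passed it there in the same direction, in place of 733 of 19602. Leaving out each tumor gave medians from 1.17 (without GB2 tumor 3) to 1.60 (without GB2 tumor 2), with 0 members called and 5 to 7 past the unadjusted rule, which 503 to 950 of all genes passed in the same direction. In 4 of these 6 fits Omd passed the filter too, so the counts and medians there cover 9 genes, as they do with no filter. With the tumor number as a replicate block, 0 members were called, 6 passed the unadjusted rule and the median was 1.38. In that fit 636 of 19602 genes passed the rule in the same direction. The count of all genes lower in GB2 tumors by the unadjusted rule was 180 with all tumors, 310 without PBS tumor 2 and 548 without PBS tumor 3. The median log2 fold change over all genes ran from -0.04 to 0.06 across settings. At 3 tumors per group, edgeR called none of the 8 tested members, and DESeq2 called 5. The groups overlapped for Fmod, Prelp and Omd, whose differences could not be told from the spread between tumors.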
